A study of Mus musculus with 4 samples.

Results

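The regions described here are windows of the mouse genome in which both DNA strands carried nascent RNA at similar, moderate levels. Reads of the 2 libraries with control siRNA were pooled and counted by their 5′ ends in 10 kb windows of chr1 to chr19. A window was taken when each strand held at least 20 and fewer than 300 pooled reads, when the strands differed by less than 3-fold, and when it lay outside long one-strand transcription units, taken as runs of 10 or more consecutive windows with at least 20 reads each on that strand. This gave 2288 windows (called members below) of 143739 with at least 1 read. Reads with a mapping score of 10 or more were used, since a low score marks a read whose place in the genome is ambiguous.

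RNA polymerase often starts in both directions from one promoter or enhancer, so that 2 transcripts run away from a shared start, which is called divergent transcription. Strands can also run towards each other where neighbouring genes end, which is called convergent, or lie over each other as sense and antisense transcripts. Strands that start at one element can be controlled together, whereas polymerases meeting head-on can hinder each other, so the joint or opposite response of the strands is a basic property of such places.

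The libraries were made by GRO-seq, in which polymerases extend labelled RNA in isolated nuclei, so that reads mark transcription in progress with its strand. The cells were 3T3-L1, a mouse preadipocyte line. They had been given control siRNA (siCTL) or siRNA that knocks down GPS2 (siGPS2), a transcriptional cofactor also found in mitochondria, and were either left untreated or kept for 3 hours in FCCP, which uncouples mitochondrial respiration from the making of ATP. Knockdown by siRNA is as a rule partial. Each of the 4 groups (siCTL, siCTL with FCCP, siGPS2, siGPS2 with FCCP) holds 1 library.

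With 1 library per group no difference has a replicate check, no test of a condition was possible, and every interval below covers counting error and compares libraries. Each file held 4200000 reads, or 4200001 in siCTL with FCCP. Reads with a score of 10 or more made up 81.9% and 82.3% of the siCTL libraries but 54.7% and 55.1% of the siGPS2 libraries, without and with FCCP. By the read names, sequencing run 183 gave the untreated siCTL library and lane 1 of run 189 gave the rest, so the FCCP comparison in siCTL spans 2 runs while that in siGPS2 lies within 1 lane. Coordinates are in build mm8, for which no annotation was used here. Genes, the knockdown of Gps2 and the markers of preadipocytes were therefore not analysed here, and members are named by position.

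The members held a small share of each library. They took 4.80% of the usable reads in siCTL, 4.38% in siCTL with FCCP, 4.77% in siGPS2 and 4.43% in siGPS2 with FCCP. The plus strand had a median of 28 reads per member in siCTL (range 2 to 178), 25 in siCTL with FCCP (3 to 203), 16 in siGPS2 (0 to 237) and 16 in siGPS2 with FCCP (0 to 204). The minus strand had medians of 28 (1 to 161), 25 (2 to 189), 17 (0 to 225) and 16 (0 to 221) in the same order. The siGPS2 libraries are lower in reads largely in step with their smaller number of usable reads. After division by scale factors of 1.18, 1.22, 0.828 and 0.841, medians of the plus strand were 23.7, 20.4, 19.3 and 19.03.

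**Figure D1:**
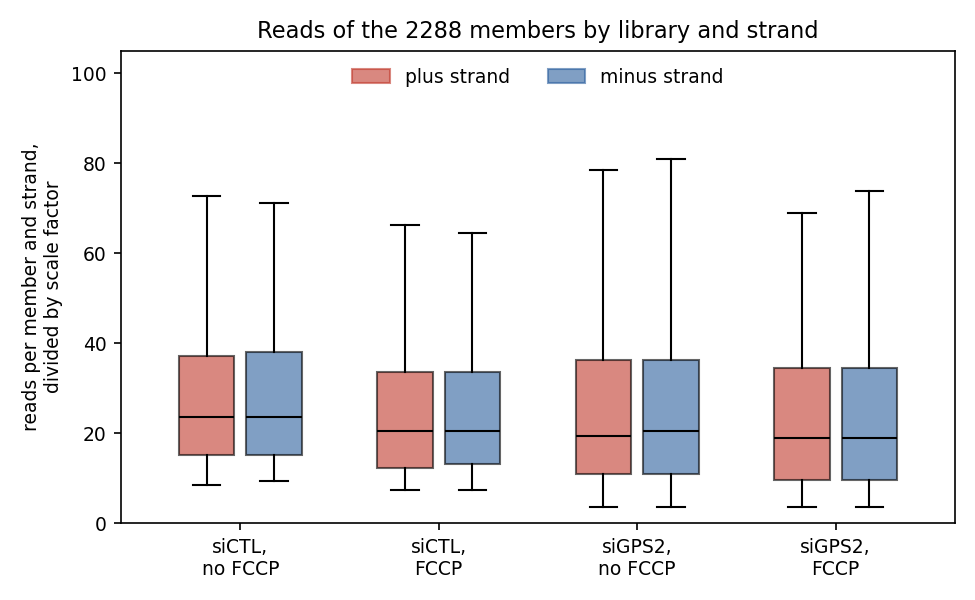
Reads per member and strand, divided by each library's scale factor, for the 2288 members in the 4 libraries (boxes, quartiles with the median; whiskers, 5th to 95th percentile; red, plus strand; blue, minus strand). The strands have like distributions in every library, and each siGPS2 library has lower medians and longer upper whiskers than its siCTL partner.

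The siCTL levels and the strand balance chose the members and are a description. In the siGPS2 libraries, which played no part in the choice, 1705 of the 2288 members (74.5%) again had less than 3-fold between the strands. The log2 balance of plus to minus reads in pooled siCTL followed that in pooled siGPS2 with Pearson's r = 0.60 and Spearman's rho = 0.61 over 2288 members, a description across windows of the same libraries. Both strands reached 20 pooled siGPS2 reads in 1238 members (54.1%), 1 strand did in 726 and neither in 324. Balance was thus mostly kept, and just over 54% of the members met the same lower limit at the lower depth of siGPS2.

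Members at the limits of the rule resembled windows just outside it. The 148 members whose weaker strand had 20 or 21 pooled siCTL reads had medians of 15 plus and 14 minus reads in pooled siGPS2. The 178 windows with 18 or 19 reads on the weaker strand had 12 and 13. A strand imbalance of 2.7-fold to under 3-fold was found in 150 members, and of 3-fold to under 3.3-fold in 149 windows left out. Because reads were pooled, a member may have entered through 1 siCTL library alone. In 127 members a strand had under 10 reads without FCCP only, in 256 with FCCP only, and in 10 on some strand in both, leaving 1895 with 10 or more on both strands in both libraries.

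Members were spread over all 19 chromosomes, with 48 to 182 on each. They formed 1988 separate stretches, 1748 of them a single window, 188 of 2 windows and 52 of 3 or more, up to 5 windows long. Most bordered other transcription. In 1212 members both neighbouring windows had at least 20 pooled siCTL reads on some strand, in 901 1 neighbour did, and in 175 (7.65%) neither did.

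Within the window, the strands ran apart, over each other or towards each other. A member was called divergent when the median position of its plus-strand reads lay 1000 bp or more to the right of that of its minus-strand reads in pooled siCTL, convergent when it lay 1000 bp or more to the left, and overlapping otherwise. By this measure 1281 members (56.0%) were divergent, 451 (19.7%) overlapping and 556 (24.3%) convergent, with median distances of 2589, 412 and -2597 bp. The order depends on this limit, since at 2000 bp overlapping was the largest class with 1056 members (46.2%), ahead of 846 divergent (37.0%) and 386 convergent (16.9%). The siGPS2 reads gave the same class in 88.5% of divergent, 70.3% of convergent and 38.1% of overlapping members. They gave the opposite class in 3.04% of divergent and 9.53% of convergent members. The divergent layout therefore recurred in libraries that had not defined it, while the overlapping class, with few reads and a narrow band of distances, recurred least. Windows outside long runs with both strands in the same range of reads but 3-fold or more unequal were divergent in 59.9%. The siGPS2 reads gave the same class in 89.5% of those. For balanced windows inside long runs the values were 46.2% and 89.2%. The divergent layout and its recurrence were thus not particular to the members.

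The strands shared little ground in divergent members. In the median divergent member 12.1% of the occupied 200 bp bins held reads of both strands in pooled siCTL, against 31.8% in overlapping and 38.7% in convergent members. A single point that best parts minus-strand reads on the left from plus-strand reads on the right was found in each divergent member on pooled siCTL reads, and a median of 93.5% of the reads lay on the divergent side of it. The point was placed to make this share as large as possible on the same reads, in members already called divergent. A high share was thus built in and is a description, and whether the strands share a start was not tested. This point stands in for a shared start site below.

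The median member was a little lower with FCCP on both strands. In siCTL the median log2 ratio of FCCP to no FCCP was -0.19 on the plus strand and -0.21 on the minus strand, against -0.09 over all 59507 strand windows with at least 20 pooled siCTL reads. In siGPS2 it was -0.10 on both strands, against -0.02 over all. Windows outside long runs with both strands in the same range of reads but 3-fold or more unequal gave nearly the same medians. They were -0.16 (plus) and -0.21 (minus) in siCTL, and -0.09 on each strand in siGPS2. Balanced windows inside long runs gave -0.13 (plus) and -0.11 (minus) in siCTL and -0.02 on each strand in siGPS2. The members' siCTL medians were below 0 on 18 of 19 chromosomes for the plus strand and on 19 of 19 for the minus strand, and the siGPS2 medians on 18 of 19 for each. The median over all strand windows was also below 0, so these counts do not set the members apart. The chromosomes of a library pair are not replicates.

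A call on a strand needed a scaled ratio of at least 1.5-fold, computed after adding 0.5 to both counts, together with a Clopper-Pearson interval (exact, two-sided error 0.001) that left out a ratio of 1. For FCCP in siCTL, 36 plus and 40 minus strands of the 2288 members were called higher, beside a background of 3.64% of all strand windows, and 74 plus and 92 minus strands were called lower, beside 4.14%. The members' shares lay below the background for higher calls and near it for lower calls. The bin interval, which takes the error from the spread of reads over the 50 bins of a window, called 53 strands higher (background 3.03%) and 129 lower (background 3.3%). For FCCP in siGPS2, 9 plus and 11 minus strands were called higher (background 1.02%) and 23 and 23 lower (background 0.753%). The bin interval called 15 higher (background 0.776%) and 35 lower (background 0.597%). Depth limits these counts, since with the median of 54 reads over both siCTL libraries a member strand is called higher only from 2.698-fold, and with 32 reads over both siGPS2 libraries only from 4.01-fold. Counts of calls therefore cannot be compared between the siRNAs.

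The FCCP ratios of a member's strands were correlated in siCTL, in the libraries that chose the members. The plus-strand and minus-strand log2 ratios had Pearson's r = 0.39 and Spearman's rho = 0.31 over 2288 members, and in 60.6% both strands lay on the same side of their medians. These are descriptions across windows that share 2 libraries and their depth. In siGPS2 the values were r = 0.11, rho = 0.10 and 52.9%, a correlation too weak to read. Within single chromosomes r ranged from 0.23 to 0.61 in siCTL, above 0 on 19 of 19, and from -0.30 to 0.28 in siGPS2, above 0 on 16 of 19.

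Reads are few, so r was set beside the agreement of a strand with itself. Log2 ratios from even and odd 200 bp bins of the same strand gave r = 0.43 for plus and 0.39 for minus in siCTL, and bins of opposite strands gave r = 0.27. In siGPS2 the same-strand values were 0.13 and 0.10 and the cross-strand value 0.04. Agreement was thus low even within 1 strand, and lower in siGPS2 than in siCTL. Depth, the unevenness of reads (described below) and the span of 2 sequencing runs in the siCTL pair all differ between these comparisons, and their parts were not tested. In the shallowest siCTL members, with 40 to 99 pooled reads over both strands, the same-strand values were 0.43 and 0.36. Members that entered through 1 siCTL library are among these, so the values cannot part depth from the choice of members. In siCTL r fell with depth, from 0.46 in 996 members with 40 to 99 pooled siCTL reads on both strands to 0.32 in 894 with 100 to under 200 and 0.18 in 398 with 200 or more, while the same-strand values in the deepest class were 0.52 and 0.59. Among the 1895 members with 10 or more reads on both strands in both siCTL libraries, r was 0.25. The strands' agreement was thus greatest in weakly transcribed members, among them those that entered the rule through 1 siCTL library.

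**Figure D2:**
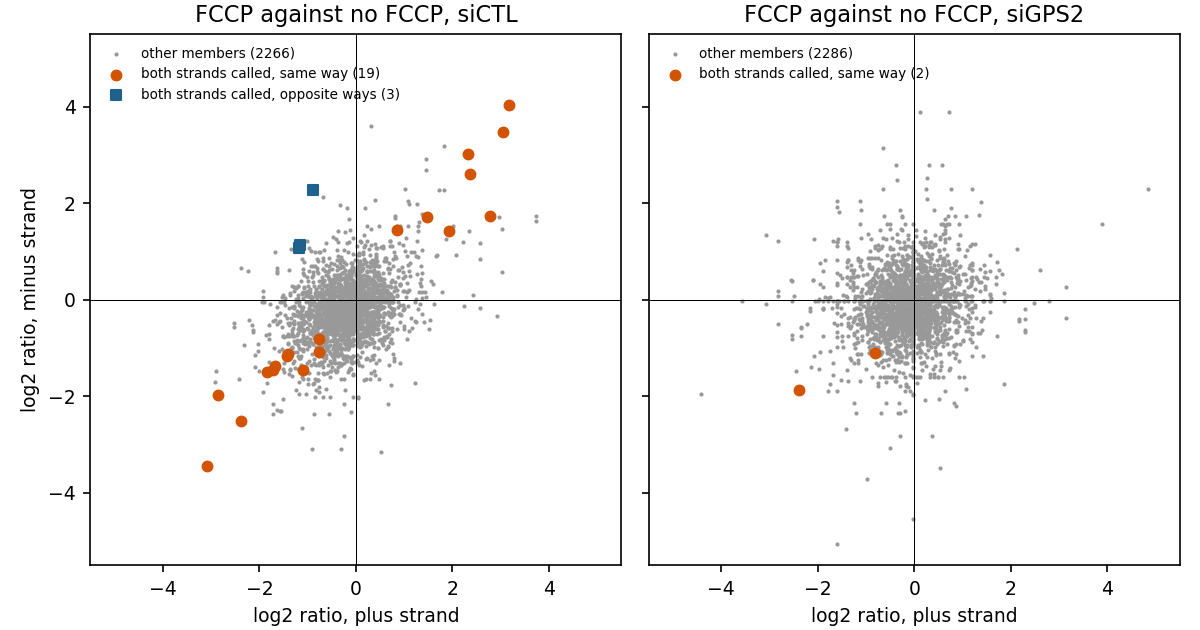
Log2 ratio of FCCP to no FCCP on the plus strand (x axis) and minus strand (y axis) of the 2288 members, in siCTL (left) and siGPS2 (right); each dot is a window. The siCTL cloud leans along the rising diagonal with 19 members called the same way on both strands and 3 called opposite ways, and the siGPS2 cloud is near round with 2 called the same way.

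Other kinds of window with both strands in the same range of reads served for comparison. In 1085 windows outside long runs whose strands differed by 3-fold or more, r was 0.28 for FCCP in siCTL, and in 1227 balanced windows inside long runs it was 0.12. The members' r exceeded that of windows in long runs on 17 of 19 chromosomes and that of unequal windows on 14 of 19. Same-strand bins agreed about equally well in all 3 kinds (0.43 and 0.39 in members, 0.38 and 0.37 in unequal windows, 0.40 and 0.44 in long runs), whereas cross-strand bins gave 0.27, 0.18 and 0.09. Among windows with 200 or more reads the order changed, with r = 0.18 in members, 0.31 in unequal windows and 0.08 in long runs, so the lead of the members over unequal windows does not hold at every depth. It was also absent in the 1895 members with 10 or more reads on both strands in both siCTL libraries, where r was 0.25. That limit was not applied to the unequal windows.

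The members that stood alone showed the closest agreement, a grouping added after the data were seen. For FCCP in siCTL, r was 0.73 in the 175 members with no transcribed neighbour, 0.41 in the 901 with 1 and 0.25 in the 1212 with both. In isolated members the cross-strand bins (r = 0.53) agreed as well as bins of the same strand (0.55 for plus and 0.44 for minus). Both strands were at least 1.5-fold higher in 29 of the 175, at least 1.5-fold lower in 25 and past 1.5-fold in opposite ways in 4. In siGPS2 the corresponding r was 0.26, with 12, 18 and 13 members. By layout 87 isolated members were divergent, 80 overlapping and 8 convergent. They were also shallow, with medians of 33 plus and 31 minus pooled siCTL reads, and 75 of them had a strand under 10 reads in a siCTL library. For members that entered through 1 siCTL library, a large siCTL ratio on both strands was built into the choice. How much of the isolated members' agreement came from this and from depth was not tested.

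**Figure D3:**
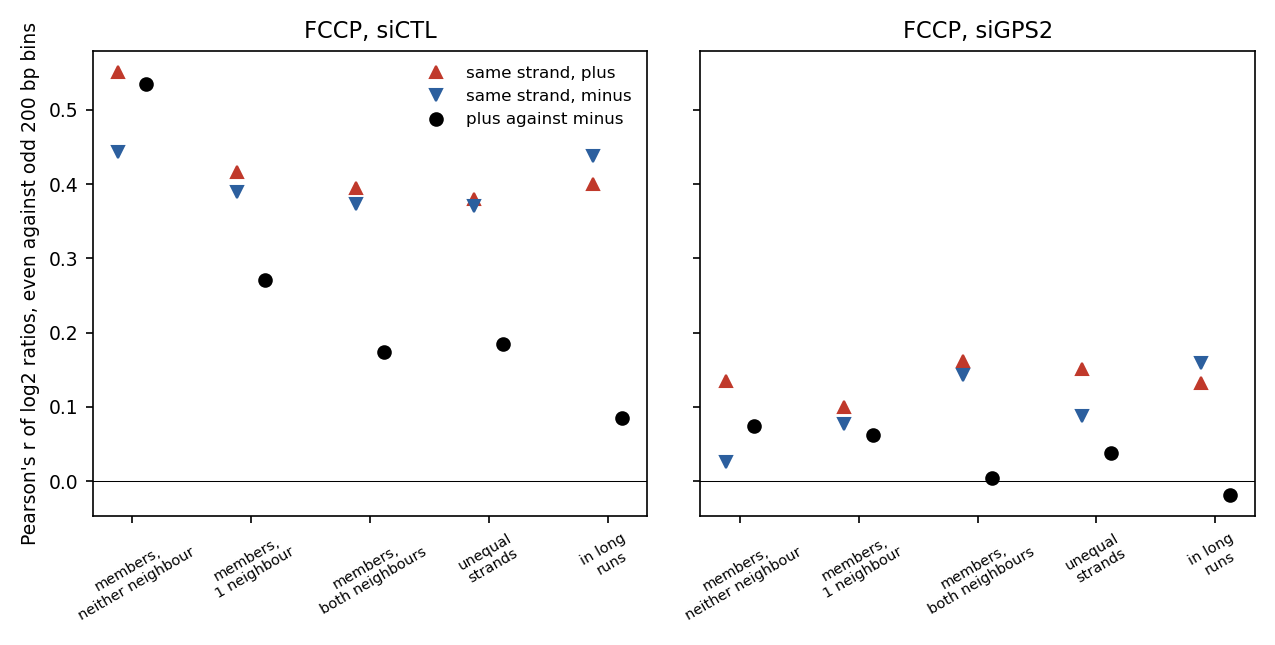
Pearson's r between log2 FCCP ratios from even and odd 200 bp bins, for bins of the same strand (triangles) and of opposite strands (black circles), in members by number of transcribed neighbours, in unequal windows and in windows inside long runs; left, siCTL; right, siGPS2. In siCTL the circle falls from 0.53 in isolated members to 0.17 in members with both neighbours and 0.09 in long runs while the triangles stay between 0.37 and 0.55.

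A comparison that shares no library between its sides is that of 1 strand in siCTL with the other strand in siGPS2. The plus-strand ratio in siCTL and the minus-strand ratio in siGPS2 had r = 0.16 over 2288 members, and the reverse pairing also 0.16. The same strand in the 2 siRNAs gave 0.26 for plus and 0.32 for minus. In windows of long runs the same-strand values were 0.28 and 0.44 and the cross-strand values 0.01 and 0.02; in unequal windows the cross-strand values were 0.07 and 0.12. Isolated members gave 0.39 and 0.27 across strands and siRNAs. Among the 1895 members with 10 or more reads throughout siCTL the cross-strand values were 0.09 and 0.13. These correlations are weak. Their sides share the windows, scale factors set jointly over the 4 libraries, and a sequencing lane, since siCTL with FCCP and both siGPS2 libraries lie on lane 1 of run 189.

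When 1 strand of a member was called with FCCP in siCTL, the other strand usually had a ratio on the same side of no change. Of 36 members with the plus strand called higher, 27 had a minus-strand log2 ratio above 0, with a median of 0.77 against -0.21 in all members. Of 40 with the minus strand called higher, 28 had the plus strand above 0 (median 0.52). Of 74 with the plus strand called lower, 57 had the minus strand below 0 (median -0.52), and of 92 with the minus strand called lower, 78 had the plus strand below 0 (median -0.53). The medians of all members were themselves -0.19 on the plus and -0.21 on the minus strand, so ratios below 0 were common without a call. These counts were not set beside other windows. In siGPS2 the counts were 6 of 9 and 5 of 11 for higher strands, and 16 of 23 and 19 of 23 for lower strands.

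Members with both strands called were few. For FCCP in siCTL both strands were called higher in 8 members, lower in 11 and in opposite ways in 3, where windows with at least 20 reads on both strands gave 0.326%, 0.377% and 0.189% of 5828. These counts are near the background. With the bin interval 10 members were called the same way on both strands (background 0.137% higher and 0.189% lower) and 2 in opposite ways (background 0.137%), chr4:154570001-154580000 and chr17:56300001-56310000. In siGPS2 both strands were called lower in 2 members by either interval (0.0343% of such windows), and in none higher or in opposite ways (0% of such windows). Without regard to calls, both strands were at least 1.5-fold higher in 74 members, lower in 229 and opposite in 64 in siCTL, and in 70, 122 and 123 in siGPS2. These counts were not set beside other windows. The median member was below 0 under both siRNAs, which favours the lower count.

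The 22 siCTL members with both strands called were followed into siGPS2, whose reads had no part in calling them; they were singled out after their values were seen. All 8 that were higher in siCTL had a plus-strand ratio above 0 in siGPS2, and 7 had the minus strand above 0 too. All 11 that were lower in siCTL had both strands below 0 in siGPS2, with median log2 ratios of -0.58 on the plus strand and -0.74 on the minus strand, against -1.68 and -1.45 in siCTL. The median over all members was itself -0.10 on each strand in siGPS2, so ratios below 0 were common. The share of all members with both strands below 0 is not given here. Some of the 22 also entered the rule mainly through 1 siCTL library. The 3 with opposite calls kept their senses in siGPS2. The single strand that turned was the minus strand of chr4:26430001-26440000, with 16 reads in siCTL, 45 in siCTL with FCCP, 15 in siGPS2 and 11 in siGPS2 with FCCP.

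**Figure D4:**
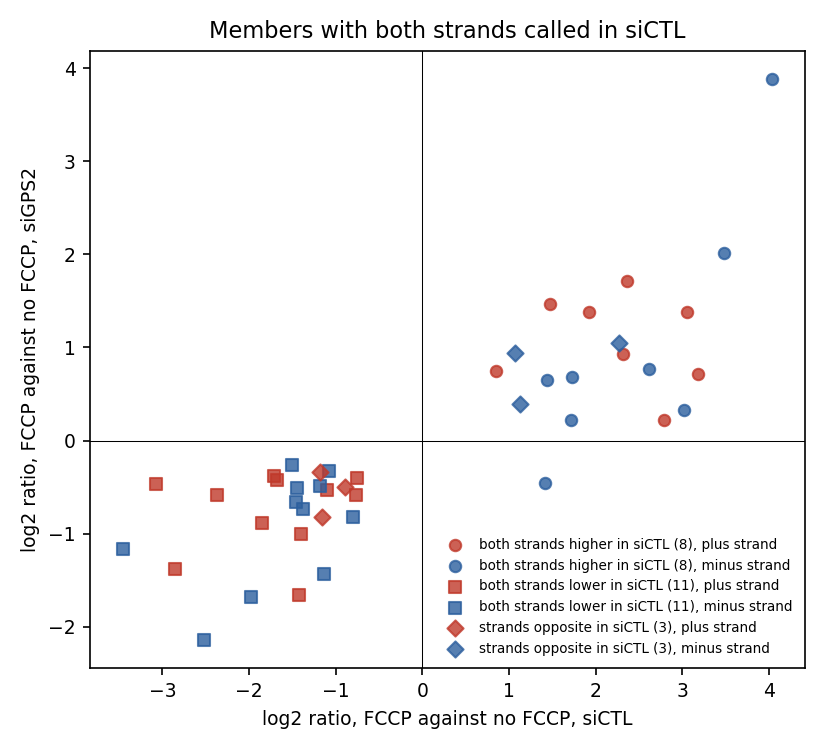
Log2 ratio of FCCP to no FCCP in siCTL (x axis) and in siGPS2 (y axis) for each strand (red, plus; blue, minus) of the 22 members with both strands called in siCTL. All but 1 strand, at -0.45 on the y axis among the higher members, have the same sign in both siRNAs, with smaller ratios in siGPS2 for most.

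Members are named below from those with at least 5 reads on each strand in each library, 1700 in all. They were ranked by the smallest of their 4 FCCP ratios. With both strands and both siRNAs in 1 direction by sign alone, 110 were higher and 390 lower. The median member was below 0 under both siRNAs, which favours the lower sign. Reads are given in a fixed order, the siCTL library before its FCCP partner and then the siGPS2 pair. The first of the higher members, chr3:80060001-80070000, had 14, 54, 13 and 24 plus reads and 16, 40, 8 and 14 minus reads. Both strands had more scaled reads with FCCP under each siRNA, by 3.63-fold (plus, log2 1.86, 95% interval 1.03 to 2.86) and 2.37-fold (minus, 0.40 to 2.21 around 1.25) in siCTL and by 1.79-fold and 1.68-fold in siGPS2, where both intervals include no change. The adjoining window chr3:80070001-80080000 had 6, 46, 16 and 19 plus reads and 20, 70, 25 and 41 minus reads. It is a member as well, and both of its strands were called higher in siCTL, by 6.91-fold and 3.32-fold.

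At chr4:43400001-43410000 the strands lay 4066 bp apart and had 53, 99, 58 and 99 plus reads and 15, 43, 30 and 48 minus reads. Both strands were called higher in siCTL, by 1.80-fold and 2.71-fold, and in siGPS2 the ratios were 1.67-fold and 1.57-fold without a call. The divergent member chr6:56200001-56210000, with no transcribed neighbour, had 8, 18, 9 and 15 plus reads and 8, 36, 7 and 14 minus reads. Each strand had more reads with FCCP under each siRNA, and the minus strand was called in siCTL (4.15-fold). The last of the 5, chr2:113440001-113450000 and chr8:77980001-77990000, had ratios of 1.53-fold to 2.86-fold over strands and siRNAs. All 5 of the named higher members were divergent.

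Of the 5 lower members, 4 had overlapping strands. At chr6:82980001-82990000 the plus strand had 49, 12, 33 and 6 reads and the minus strand 41, 20, 55 and 15. Both strands were lower with FCCP under each siRNA, and both were called in siGPS2, by 5.23-fold (log2 -2.39, -4.03 to -1.21) and 3.64-fold (-1.86, -2.83 to -1.05), against 4.10-fold and 2.10-fold in siCTL. The other member with both strands called lower in siGPS2, chr8:87860001-87870000, had 101, 79, 162 and 93 plus reads and 136, 67, 102 and 48 minus reads. Its plus strand was 1.32-fold lower in siCTL, without a call, and 1.77-fold lower in siGPS2, while its minus strand was 2.09-fold and 2.15-fold lower.

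At chr12:15840001-15850000 there were 19, 6, 20 and 6 plus reads and 49, 10, 30 and 10 minus reads. Every FCCP library was below its partner, by 3.11-fold and 4.88-fold in siCTL and by 3.20-fold and 2.95-fold in siGPS2, of which only the siCTL minus strand was called. At chr6:51040001-51050000 there were 24, 8, 15 and 5 plus reads and 40, 8, 23 and 7 minus reads, a drop of 2.86-fold to 4.93-fold on each strand under each siRNA. A further pair of members on the same chromosome, chr6:51090001-51100000 and chr6:51100001-51110000, had both strands called lower in siCTL, by 2.68-fold and 2.26-fold and by 1.69-fold and 2.12-fold. The divergent member chr14:30490001-30500000 had 95, 37, 40 and 20 plus reads and 83, 39, 30 and 11 minus reads, with both strands called lower in siCTL (2.64-fold and 2.19-fold) and ratios of 2.01-fold and 2.69-fold lower in siGPS2. The fifth, chr17:88160001-88170000, was 1.82-fold to 2.51-fold lower without a call, and 35.1% of its reads had a score below 10.

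Among members with both strands called, the largest ratios came from those nearly silent in 1 siCTL library. The 3 described here reached 20 pooled reads per strand almost wholly through the siCTL library in which they are high, so a large siCTL ratio on both strands was built into their choice and is a description. At chr8:89370001-89380000, an isolated divergent member, plus reads numbered 2, 23, 1 and 2 and minus reads 1, 25, 0 and 7. Only the siCTL library with FCCP held more than 7 reads on a strand, with ratios of 9.08-fold (log2 3.18, 1.46 to 6.60) and 16.4-fold (4.04, 1.98 to 9.95). At chr2:77790001-77800000 there were 2, 21, 5 and 14 plus reads and 3, 40, 4 and 18 minus reads, and both libraries with FCCP were above both without. The ratios were 8.31-fold (log2 interval 1.31 to 6.48) and 11.2-fold (2.04 to 6.02) in siCTL and 2.60-fold (-0.09 to 3.29) and 4.05-fold (0.55 to 4.17) in siGPS2. In the other direction chr11:28730001-28740000, also isolated, had 28, 3, 7 and 5 plus reads and 26, 2, 5 and 2 minus reads. It was 8.43-fold (-5.63 to -1.58) and 11.0-fold lower (-6.87 to -1.75) in siCTL, its intervals in siGPS2 include no change, and 53.8% of its reads had a score below 10.

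Strands moving in opposite ways were the less common pattern in siCTL but were found under both siRNAs at some members. Of the 1700 members, 112 had the plus strand higher and the minus strand lower with FCCP under both siRNAs, and 95 had the reverse. These counts are by sign alone and were not set beside other windows. How many would recur through counting error was not tested. At chr11:73000001-73010000 the plus strand had 35, 20, 17 and 10 reads and the minus strand 39, 81, 33 and 69. The minus strand was called higher under each siRNA, by 1.99-fold (log2 0.99, 0.44 to 1.59) and 2.04-fold (1.03, 0.42 to 1.69), while the plus strand was 1.79-fold and 1.69-fold lower without a call. At chr4:154570001-154580000 there were 90, 50, 49 and 35 plus reads and 12, 62, 14 and 30 minus reads. Here both strands were called in siCTL, the plus strand 1.86-fold lower and the minus strand 4.83-fold higher, and in siGPS2 the ratios were 1.42-fold lower and 2.07-fold higher.

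The other 2 members with opposite calls in siCTL were convergent. At chr15:59150001-59160000 there were 171, 79, 112 and 64 plus reads and 29, 66, 41 and 55 minus reads. The plus strand was called lower under both siRNAs (2.23-fold and 1.77-fold), and the minus strand was called higher in siCTL alone (2.18-fold, and 1.32-fold in siGPS2). At chr17:56300001-56310000 there were 77, 35, 25 and 20 plus reads and 87, 189, 27 and 53 minus reads, 2.26-fold lower and 2.09-fold higher in siCTL and 1.26-fold lower and 1.92-fold higher in siGPS2. At chr1:193050001-193060000 the minus strand had 23, 59, 20 and 45 reads beside 19, 14, 12 and 7 plus reads, and was called higher in siCTL (2.45-fold). The remaining named members with the minus strand higher, chr2:84830001-84840000 and chr10:106630001-106640000, had no called strand.

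With the plus strand higher, chr6:56820001-56830000 came first. It had 36, 62, 41 and 65 plus reads and 31, 9, 15 and 9 minus reads, so that the plus strand was higher with FCCP (1.65-fold and 1.55-fold, no call) and the minus strand lower (3.43-fold, called, and 1.66-fold). At chr19:3890001-3900000 there were 49, 106, 23 and 39 plus reads and 77, 45, 65 and 43 minus reads. Its plus strand was called higher in siCTL (2.08-fold) while the minus strand was 1.76-fold lower. At chr9:18070001-18080000 there were 55, 114, 49 and 73 plus reads and 37, 26, 34 and 13 minus reads, with the plus strand called higher in siCTL (1.99-fold). The last 2, chr19:29100001-29110000 and chr13:82150001-82160000, had no called strand. Among the 10 members named for opposite strands 5 were convergent, 3 overlapping and 2 divergent, whereas of the 10 named for joint strands 6 were divergent and 4 overlapping; the difference was not tested.

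Layout and joint response were also compared over all members. For FCCP in siCTL, r between the strands was 0.42 in divergent, 0.47 in overlapping and 0.25 in convergent members. In siGPS2 it was 0.06, 0.18 and 0.14, in another order. Of the 3 members with opposite calls in siCTL none was divergent, and of the 19 called the same way 10 were divergent, 6 overlapping and 3 convergent, beside 56.0%, 19.7% and 24.3% of all members. These counts are too small to tell the layouts apart.

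Reads near the shared start of divergent members fell most with FCCP, a measure added after the data were seen. Over the 1281 divergent members the first 300 bp on the plus side held 6294 plus-strand reads in siCTL, 4361 in siCTL with FCCP, 2308 in siGPS2 and 1746 in siGPS2 with FCCP. The first 300 bp on the minus side held 5918, 3795, 1673 and 1305 minus-strand reads. Scaled, the FCCP libraries were lower on both strands under both siRNAs. The log2 ratio was -0.58 (95% counting interval -0.64 to -0.52) on the plus strand and -0.69 (-0.75 to -0.63) on the minus strand in siCTL, and -0.42 (-0.52 to -0.33) and -0.38 (-0.49 to -0.28) in siGPS2.

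From 1 to 3 kb away the same members hardly changed. Plus-strand reads there numbered 15897, 15793, 10231 and 10255, and minus-strand reads 16383, 16162, 10821 and 10684. The log2 ratio with FCCP was -0.06 (-0.09 to -0.03) and -0.07 (-0.10 to -0.04) in siCTL and -0.02 (-0.06 to 0.02) and -0.04 (-0.08 to -0.002) in siGPS2. The density of the first 300 bp relative to 1 to 3 kb went from 2.64 to 1.84 on the plus strand and from 2.41 to 1.57 on the minus strand in siCTL, and from 1.504 to 1.14 and from 1.03 to 0.814 in siGPS2. When the start point was placed with siGPS2 reads instead, the near ratio with FCCP was -0.41 and -0.50 in siCTL and -0.30 and -0.25 in siGPS2. The siCTL pair spans 2 sequencing runs, and the siGPS2 pair shares 1 lane.

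**Figure D5:**
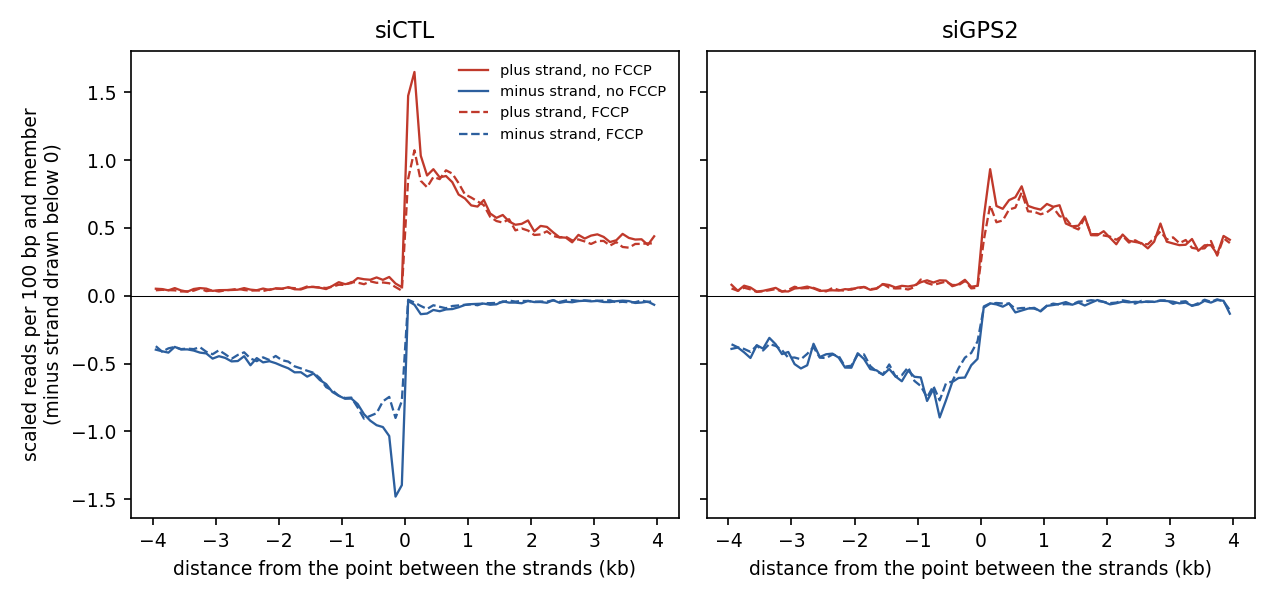
Scaled reads per 100 bp and member around the point that parts the strands in the 1281 divergent members, with the plus strand above 0 and the minus strand drawn below 0, in siCTL (left) and siGPS2 (right); solid lines, no FCCP; dashed lines, FCCP. The peaks beside the point are lower with FCCP, and beyond 1 kb the dashed and solid lines run close together.

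In either FCCP state the median member had fewer scaled reads in siGPS2 than in siCTL, as had windows at large. The median log2 ratio of siGPS2 to siCTL was -0.25 on the plus strand and -0.24 on the minus strand without FCCP, and -0.18 and -0.15 with FCCP. All strand windows gave -0.22 and -0.15. Members were chosen on siCTL reads, which favours windows high in siCTL, so these ratios are set beside windows chosen with the same read limits. Unequal windows gave -0.22 and -0.31 without FCCP and windows in long runs -0.14 and -0.15.

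Calls between the siRNAs rest on uneven reads. The median variance-to-mean ratio of reads over the 200 bp bins of a member strand with 10 or more reads was 1.93 and 1.90 in the siCTL libraries and 3.76 and 3.47 in the siGPS2 libraries, and exact intervals do not cover that unevenness. Without FCCP 82 plus and 97 minus strands were called higher in siGPS2 by the exact interval (background 4.51%) and 116 and 125 lower (background 7.46%). The bin interval called 21 strands higher and 80 lower (background 0.615% and 3.09%). With FCCP, within 1 lane, the exact interval called 78 plus and 83 minus strands higher (background 4.23%) and 82 and 60 lower (background 5.24%), and the bin interval 26 higher and 55 lower (background 0.768% and 2.3%). The members' shares were near the background for higher calls and below it for lower calls by each interval.

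Between the siRNAs the strands of a member showed little agreement. The strand ratios had r = 0.15 without FCCP and 0.11 with FCCP, and rho = 0.14 and 0.11. Without FCCP both strands were called higher in 9 members, lower in 9 and in opposite ways in 9 (0.377%, 0.326% and 0.566% of windows with reads on both strands), close to those shares. With FCCP 8 were called the same way and 3 in opposite ways (0.36% higher, 0.24% lower and 0.223% opposite in such windows). By the bin interval, 3 members had both strands called lower without FCCP (background 0.0686%) and no member otherwise, with FCCP included (background 0.0515% lower and 0.0515% opposite). The 3, singled out after their values were seen, are chr2:126050001-126060000, chr9:44350001-44360000 and chr11:32120001-32130000. Each was lower in siGPS2 without FCCP by 3.19-fold to 4.78-fold on each strand. With FCCP the first had log2 ratios of -0.10 (-1.30 to 1.00, plus) and -0.52 (-1.43 to 0.31, minus), without a call. The minus strand of the second was 1.59-fold above siCTL with FCCP, without a call, and its plus strand was 2.65-fold lower, with a call. The third was lower with FCCP too, by 8.93-fold on the plus strand (called, with 1 read in siGPS2) and 2.52-fold on the minus strand (no call). The same strand was by contrast alike in the 2 comparisons, which share no library, with r = 0.56 for plus and 0.59 for minus, while the cross-strand values were 0.06 and 0.10. The siRNA ratio of a strand thus recurred with FCCP, and hardly followed that of the other strand. Unequal windows gave 0.63 and 0.62 for the same strand and 0.04 and 0.08 across strands. Windows in long runs gave 0.66 and 0.68 for the same strand and 0.09 and 0.07 across strands. The pattern was thus not particular to the members. Unevenness and low-score reads shared by the 2 siGPS2 libraries move with the siRNA ratio of a strand, and their part was not tested.

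Single members show such differences in both FCCP states. At chr7:126290001-126300000, a divergent member, the plus strand had 53, 48, 81 and 79 reads and the minus strand 116, 126, 38 and 39, in the order used above. The plus strand was higher and the minus strand lower in both siGPS2 libraries, by 2.17-fold and 2.12-fold without FCCP and by 2.39-fold and 2.20-fold with FCCP, and the minus strand was called by the bin interval too. At chr18:60650001-60660000 there were 42, 44, 80 and 85 plus reads and 26, 25, 6 and 5 minus reads. At chr19:11830001-11840000 there were 28, 26, 5 and 7 plus reads and 21, 31, 50 and 62 minus reads, the reverse sense. In these 2 the higher strand was called in both FCCP states by the exact interval alone, and FCCP moved neither strand by as much as the siRNA did.

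The other named members with opposite strands were chr6:148900001-148910000 (plus higher), chr7:119620001-119630000 and chr11:77790001-77800000 (minus higher), with 52.5%, 9.63% and 17.1% of their reads below a score of 10. Besides chr7:126290001-126300000, the members with opposite calls with FCCP were chr1:58650001-58660000 and chr3:89480001-89490000, singled out after their values were seen. The first had 64, 65, 26 and 16 plus reads and 49, 34, 107 and 64 minus reads. The second had 34, 42, 12 and 8 plus reads and 22, 15, 35 and 38 minus reads. In each the plus strand was lower and the minus strand higher in both siGPS2 libraries.

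Joint differences were found as well. At chr11:95820001-95830000, a divergent member, there were 32, 21, 59 and 47 plus reads and 30, 20, 57 and 45 minus reads, and the 2 strands were almost equal in each library. Both were higher in siGPS2, by 2.61-fold and 2.69-fold without FCCP and by 3.21-fold and 3.23-fold with FCCP. At chr1:169200001-169210000 there were 32, 13, 58 and 35 plus reads and 14, 7, 60 and 18 minus reads, and at chr3:95390001-95400000 there were 11, 12, 23 and 24 plus and 30, 31, 55 and 68 minus reads, each again higher on both strands in siGPS2. Lower on both strands was chr7:45580001-45590000, with 94, 92, 24 and 24 plus reads and 35, 36, 6 and 10 minus reads. It was 2.702-fold and 3.83-fold lower without FCCP, and 39.5% of its reads had a score below 10. At chr8:74410001-74420000 there were 40, 39, 9 and 9 plus reads and 96, 40, 27 and 11 minus reads. At chr6:88480001-88490000 there were 43, 33, 7 and 10 plus reads and 81, 88, 24 and 26 minus reads. All 3 named lower members were divergent.

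Divergent members were lower in siGPS2 than convergent members, a difference also seen in like windows outside the rule. Without FCCP the median log2 ratio was -0.36 on the plus and -0.44 on the minus strand of divergent members, and -0.01 and 0.03 on those of convergent members. With FCCP it was -0.31 and -0.27 against 0.00 and 0.10. Averaged over strands, the divergent median lay below the convergent one on 19 of 19 chromosomes in both comparisons. In the deepest class, with 200 or more pooled siCTL reads, the divergent medians without FCCP were -0.28 and -0.30 and the convergent ones 0.04 and 0.10. When a 20 bp stretch with reads was counted once, whatever its number of reads, the difference between the layouts was -0.20 without FCCP and -0.23 with FCCP, against -0.40 and -0.35 from reads. The share of reads with a score below 10 was 29.7% in the siGPS2 libraries and 13.8% in the siCTL libraries for divergent members, and 24.4% and 13.1% for convergent members. Its part in the difference was not tested. In divergent unequal windows median pooled reads, unscaled, went from 69.5 plus and 64 minus in siCTL to 37 and 34 in siGPS2. In convergent ones they went from 67 and 81.5 to 54.5 and 54. In long runs they went from 60 and 55 to 34 and 32 in divergent windows. In convergent windows of long runs they went from 70 and 69 to 55 and 46. The difference was thus not particular to the members.

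For FCCP the layouts differed the other way and by less. Averaged over strands, the median log2 ratio was -0.18 in divergent and -0.27 in convergent members in siCTL, and -0.09 and -0.19 in siGPS2. The divergent median was below the convergent one on 4 of 19 chromosomes in each.

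Near the shared start of divergent members the log2 ratio of siGPS2 to siCTL without FCCP was -0.93 (-1.003 to -0.86) on the plus strand and -1.31 (-1.39 to -1.23) on the minus strand, and from 1 to 3 kb it was -0.12 and -0.08. The start points were placed on siCTL reads, which raises the siCTL count beside them. Placed on siGPS2 reads, the near ratios were -0.25 (-0.32 to -0.18) and -0.58 (-0.65 to -0.50) without FCCP and -0.15 and -0.32 with FCCP. The sign held on both strands, and the size depended on the library that set the point. On the plus strand these last ratios were close to the medians over all strand windows, -0.22 without FCCP and -0.15 with FCCP. A fall near the start beyond that of windows at large was thus not shown for the plus strand.

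The longest stretches of adjoining members, 6 of 4 or 5 windows, included both strands moving together, strands moving apart and 1 strand moving alone. At chr12:70090001-70140000 minus-strand reads summed to 234, 233, 234 and 171, and the plus strand had 292 in siCTL, 257 in siCTL with FCCP and 263 in siGPS2. Both strands were lower with FCCP in siGPS2 (log2 -0.42, -0.70 to -0.15, and -0.47, -0.77 to -0.18), and in siCTL the intervals include no change. At chr11:70470001-70520000 there were 185, 170, 182 and 137 plus reads and 270, 213, 155 and 111 minus reads, with FCCP ratios of -0.17 and -0.39 in siCTL and -0.43 and -0.50 in siGPS2. At chr13:54580001-54620000 there were 112, 75, 88 and 76 plus reads and 161, 129, 115 and 91 minus reads, lower with FCCP on both strands in siCTL (-0.63 and -0.37).

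At chr14:26280001-26320000 the strands differed between the siRNAs in opposite ways, with 109, 88, 49 and 39 plus reads and 103, 132, 143 and 155 minus reads. The plus strand was lower in siGPS2 (log2 -0.63 without and -0.62 with FCCP) and the minus strand higher (0.99 and 0.77), and all 4 intervals exclude no change. At chr15:81710001-81750000 there were 234, 156, 162 and 142 plus reads and 166, 198, 97 and 107 minus reads, and with FCCP the plus strand was lower in siCTL (-0.63, -0.94 to -0.34) while the minus interval includes no change (0.20, -0.10 to 0.51). At chr4:82920001-82960000 there were 270, 288, 274 and 327 plus reads and 263, 225, 182 and 173 minus reads. Its plus strand was higher in siGPS2 (0.53 without and 0.72 with FCCP), while the intervals of the minus strand include no change.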

How the data were processed

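Per the submitters' processing notes Bowtie, HOMER and build mm8 were used, without versions; what else was done is not stated by the labels. The deposited files list 1 aligned read per line with a score from the authors in column 5, read here as the mapping quality. In 3 files 1 malformed line was dropped. Libraries were scaled by medians of ratios over 27619 strand windows that had 20 or more reads in all 4 libraries. Ratios used reads with 0.5 added and exact Clopper-Pearson intervals, which cover counting error only; 95% intervals are shown. The bin interval used paired counts in 50 bins of 200 bp and was never narrower than counting error. Calculations used Python 3.11.15, numpy 2.4.6, scipy 1.17.1 and pandas 2.3.3 and were tested on simulated data. Members and lists were chosen with earlier results of these data known. Named members needed at least 5 reads per strand and library and were ranked by the smallest of 4 absolute ratios: for FCCP 5 per pattern, for siGPS2 3 per pattern; all members with both strands called were added where they numbered 10 or fewer, and those called with FCCP in siCTL after seeing the data. No sequence is given, since no mm8 genome was used.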

Additional observations from a re-analysis of the deposited data

Results flagged for a closer look

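Reads with a score below 10, which the comparisons leave out, made up 28.1% of the reads in the members in siGPS2 and 27.8% in siGPS2 with FCCP, above the 14.0% and 13.4% in the siCTL libraries without and with FCCP. They stand here because they lie outside the reads analysed and their share exceeds that in the control siRNA. The excess was not particular to the members. In the whole siGPS2 libraries only 54.7% and 55.1% of reads had a score of 10 or more, against 81.9% and 82.3% in siCTL.

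The minus strand of chr4:26430001-26440000 was called higher with FCCP in siCTL (log2 1.41, 95% interval 0.59 to 2.36) and had a ratio of -0.453 (-1.74 to 0.75) in siGPS2. It stands here because the FCCP ratios of the 2 siRNAs have opposite signs in 1 library pair each; the difference was not tested.

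The minus strand of chr9:44350001-44360000, with 51 reads in siCTL, 21 in siCTL with FCCP, 8 in siGPS2 and 23 in siGPS2 with FCCP, was called lower in siGPS2 without FCCP, at a log2 ratio of -2.09 (-3.45 to -1.07), and had a ratio of 0.67 (-0.25 to 1.60) with FCCP. It stands here for the same reason, between the FCCP states; the difference was not tested.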

How the results depend on the processing

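No paired analysis was possible because each group holds 1 library, and for the same reason no library could be left out. Over 9 alternatives r between the strands was 0.26 to 0.53 for FCCP in siCTL, 0.06 to 0.17 in siGPS2, 0.10 to 0.19 between siRNAs without FCCP and 0.08 to 0.18 with FCCP. The siCTL value was 0.53 with runs of 5 windows left out (956 members) and 0.26 with at least 40 reads per strand (1396 members). The divergent share was 37.0% at 2000 bp, below the overlapping share of 46.2%. Counts below are given for FCCP in siCTL, FCCP in siGPS2, and siGPS2 against siCTL without and with FCCP, where they moved by over 1.5 times from 242, 66, 420 and 303 strands called, 19, 2, 18 and 8 members called the same way and 3, 0, 9 and 3 opposite. With occupied 20 bp bins the strands called were 145, 6, 56 and 46, the members called the same way 9, 0, 0 and 1, and those opposite 1 in siCTL and 0 and 0 between siRNAs; the divergent minus convergent difference was -0.20 and -0.23. With runs of 5 left out, so with fewer members, strands called were 113, 20, 159 and 97, members the same way 0 for FCCP in siGPS2 and 8 and 1 between siRNAs, and opposite 0 for FCCP in siCTL and 3 and 0 between siRNAs. With the bin interval 10 were called the same way for FCCP in siCTL; between siRNAs 101 and 81 strands were called, 3 and 0 members the same way, and 0 and 0 opposite. With score 42 only, 9 were called the same way for FCCP in siCTL, 39 strands for FCCP in siGPS2, 8 the same way and 5 opposite without FCCP, and 171 strands and 1 opposite with FCCP. With all reads 32 were called the same way and 20 opposite without FCCP, and 455 strands, 20 the same way and 7 opposite with FCCP. With strands less than 2-fold apart 1 was opposite for FCCP in siCTL, 269 strands were called, 9 the same way and 5 opposite without FCCP, and 193 strands and 1 opposite with FCCP. With 40 reads per strand 11 were called the same way for FCCP in siCTL. A 2-fold limit on calls left 1 the same way for FCCP in siGPS2 and 5 between siRNAs with FCCP. A grid moved by 5 kb gave 5 opposite between siRNAs with FCCP. In these cases the cause was not tested. Of the other values for which an alternative was computed, 58 moved by less than their spread over chromosomes, 1.5 times or their counting interval, and 30 by more.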
